A study of Mus musculus with 4 samples.

Results

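Fibroblasts that carried the Cx30 reporter of the spinal cord were described from sorted single cells. A cell was counted as a fibroblast where it had more than 500 and fewer than 50000 unique molecular identifiers (UMIs, a count of captured RNA molecules) over all gene features, a UMI in at least 4 of the 8 genes Col1a1, Col1a2, Col3a1, Dcn, Lum, Slc6a13, Pcolce and Igf2, and fewer than 5 UMIs of C1qa, C1qb and C1qc summed. This rule found 131 of 5038 kept cells, 43 of 879 in the injured library (4.89%, 95% exact binomial interval 3.56 to 6.53) and 88 of 4159 in the uninjured library (2.12%, 1.70 to 2.60). The members were selected on the values of those genes, so the levels of the 8 genes are given as a description. In the text, gate means the set of cells that met a rule of this kind.

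The mice carried a Cx30 driver crossed with the R26R-tdTomato Cre reporter (Cx30-Tom), entered the study at 8 to 12 weeks, received tamoxifen to switch the reporter on, and were given a pool of enhancer AAVs into the blood. The injured group then had a contusion of the thoracic cord and was sampled 3 days later. The uninjured group had the same line, tamoxifen and virus and no contusion. From each animal a 5 mm segment was taken, the meninges were cleared away, the tissue was digested with papain, and tdTomato+ cells were sorted and run on a 10x 3' assay. Each condition was 1 library pooled from 1 or 2 animals per sex according to the design text of the series, so there were no replicates, no test between conditions was possible, and every interval covers counting error only. The line marks cells that expressed the driver around the tamoxifen doses, whether or not they still did when sampled, and it was made to mark astrocytes.

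Fibroblasts of the central nervous system lie in the meninges, around larger vessels and in the roots, where they make fibrillar collagen and other matrix. After a cord injury they gather at the lesion and lay down the fibrotic part of the scar. Connexin 30 is a gap junction protein encoded by Gjb6; it joins astrocytes to each other, and together with connexin 26, encoded by Gjb2, it also joins fibroblasts of the meninges.

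The libraries differed before any gene was compared. The fibroblasts held 743395 gene UMIs after injury (median 11790 per cell, 843 to 47516) and 322065 without it (median 3187.5, 503 to 15058). By Xist and 4 Y-linked genes, 20 injured fibroblasts were female, 13 male and 10 showed neither or both, whereas no uninjured fibroblast was female, 49 were male and 39 showed neither or both. This goes against the design text, which gives both sexes for each condition, so sex and injury cannot be told apart except in male cells. Values in male cells are given for some lists and genes. Cell barcodes present in both libraries numbered 7, of which 1 was a fibroblast. No doublets were removed, and 10 injured fibroblasts (7 by mural genes, 2 by astrocyte genes, 1 by ependymal genes) and 4 uninjured ones (all by astrocyte genes) also met the gate of another cell type.

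The label was checked against genes that the rule did not use. Of 20 further fibroblast genes, 18 could be compared with the astrocyte gate of the same libraries, and 16 of these were at least 4-fold higher in fibroblasts in both libraries. Over all 3999 genes compared, 333 (8.33%) reached that difference. The list did not set these cells apart from the mural gate, where it summed to 14716 counts per 1000000 gene UMIs (CPM) after injury (11 cells) and 21991 CPM without it (3 cells), against 10776 and 16189 CPM in the fibroblasts. Genes of other cells were present at lower levels. A list of 10 astrocyte markers summed to 1005 CPM in injured and 1900 CPM in uninjured fibroblasts, against 15650 and 16791 CPM in the astrocyte gates, and 5 of the 7 that could be compared between conditions were lower after injury. The 10 microglia and macrophage markers summed to 80.7 and 31.0 CPM, the 10 mural markers to 1125 and 1289 CPM, and the 8 oligodendrocyte markers to 17.5 and 49.7 CPM, with Mog, Mag, Ermn and Opalin at 0 in both libraries. The barrier transporter genes Slc22a2, Slc22a6 and Slc7a14 were also at 0, and Slc22a8 stood at 20.2 and 6.21 CPM.

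The 8 rule genes took a median of 1.72% of the UMIs of an injured fibroblast (0.119 to 4.11%) and 2.73% of an uninjured one (0.216 to 6.48%). All 8 genes were seen in 22 injured and 14 uninjured cells. Just inside the rule, 4 injured and 4 uninjured cells had a UMI in exactly 4 genes. Their rule genes took a median of 0.640% and 1.16% of UMIs. Just outside it, 7 cells in each library had exactly 3 of the genes, at medians of 0.0561% and 0.142%. Of the fibrillar collagens in the rule, 2 were close to level between conditions. Col1a1 stood at 1626 CPM after injury and 1643 CPM without it, and Col1a2 at 1700 and 1611 CPM. Col3a1 was at 2333 and 1403 CPM, a log2 ratio of 0.73. Dcn, the collagen-binding proteoglycan decorin, was at 8093 and 22908 CPM. Slc6a13, a transporter for GABA and taurine found in meningeal fibroblasts, was at 327 and 739 CPM, and Igf2, insulin-like growth factor 2, at 343 and 279 CPM. With cells that met another gate left out, Igf2 was at 171 and 312 CPM.

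The reporter was read from the feature named tdTomato-WPRE. Injured fibroblasts held 1363 of its UMIs in 40 of 43 cells and uninjured ones 377 in 80 of 88 cells. Per cell the count ran from 0 to 183 with a median of 17 after injury, and from 0 to 18 with a median of 3 without it. As a level this was 1833 CPM (exact Poisson interval 1737 to 1933) and 1171 CPM (1055 to 1295). The C1q gate, cells with 5 or more C1q UMIs that should lack the reporter, was at 38.5 CPM (34 of 114 cells, 29.8%, median depth 14398.5 UMIs) and at 0 in 29 cells of median depth 3711, which allows up to 26.6 CPM. With every cell thinned to 1000 gene UMIs, 66.7% of injured and 60.5% of uninjured fibroblasts kept a tdTomato-WPRE UMI, against 5.61% and 0% of C1q gate cells. An EGFP feature was at 0 UMIs in the fibroblasts of both libraries, which allows up to 4.04 and 9.31 CPM.

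Against the astrocytes, for which the line was made, the reporter stood differently in each library. In the uninjured cord the fibroblasts were 2.78-fold above the astrocyte gate (2.50 to 3.09), which was at 421 CPM. In the injured cord they were at 0.833 of the astrocyte level (0.782 to 0.886), which was at 2201 CPM. The level in fibroblasts differed less between the libraries than the level in astrocytes did, since the log2 ratio of injured over uninjured fibroblasts was 0.65 (0.48 to 0.82). Among male cells that ratio was -0.023, and with every cell weighted equally it was 0.27. The virus carries a WPRE element of its own, and whether its reads entered this feature was not tested.

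**Figure D1:**
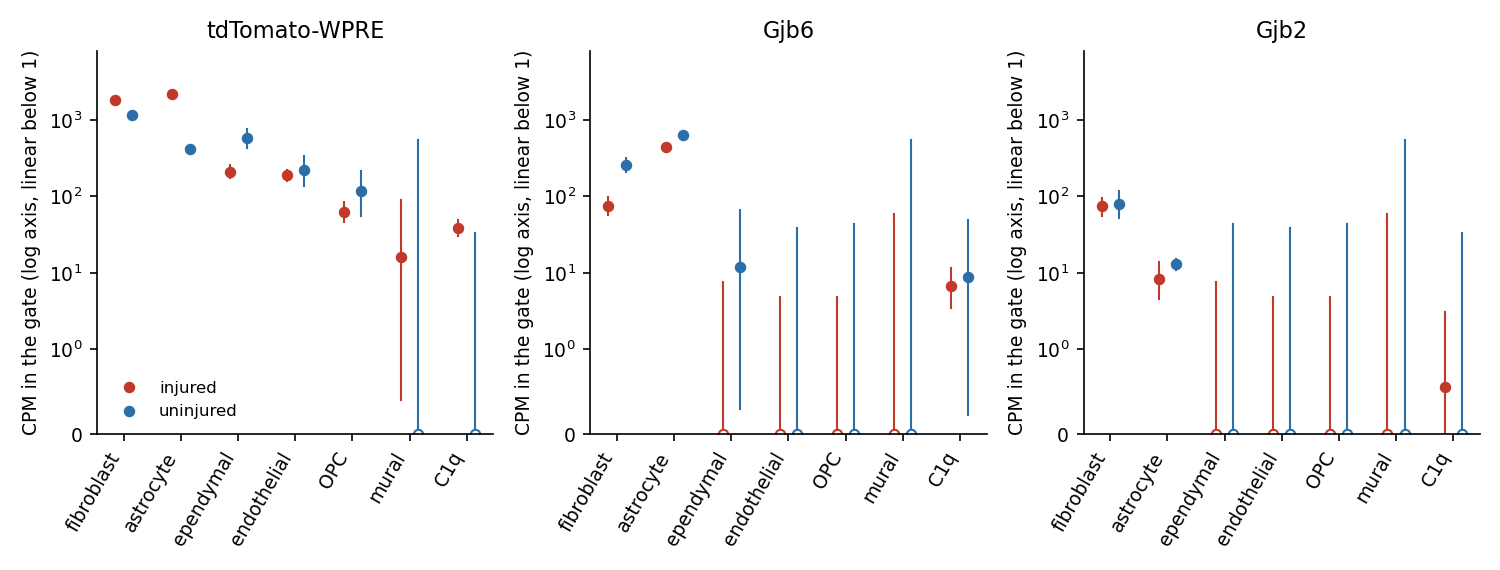
Levels of tdTomato-WPRE, Gjb6 and Gjb2 in 7 gates of cells, in CPM on a log axis that is linear below 1, with exact Poisson 95% intervals, open circles at 0, red for injured and blue for uninjured. The fibroblast gate stands at 1833 and 1171 CPM of the reporter and is the gate with the highest Gjb2 in both libraries, at 74.0 and 80.7 CPM.

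The promoters of Gjb6 and Gjb2 are shown because the sort rests on the first gene and both were read in these cells. The genes are neighbors on the minus strand of mouse chromosome 14, Gjb6 at 57123303 to 57133611 and Gjb2 at 57098600 to 57104702 (GRCm38, GENCODE M21), with 18600 bases between them. The windows run from 250 bases before to 50 bases after the start of each gene (RefSeq, GRCm38.p6), Gjb6 at chr14:57133562-57133861 and Gjb2 at chr14:57104653-57104952, both on the minus strand and written 5′ to 3′. Capitals mark matches on either strand to any of the TATA box (TATAAA), the GC box (GGGCGG), the AP-1 motif (TGANTCA) and the E-box (CACGTG).
Gjb6: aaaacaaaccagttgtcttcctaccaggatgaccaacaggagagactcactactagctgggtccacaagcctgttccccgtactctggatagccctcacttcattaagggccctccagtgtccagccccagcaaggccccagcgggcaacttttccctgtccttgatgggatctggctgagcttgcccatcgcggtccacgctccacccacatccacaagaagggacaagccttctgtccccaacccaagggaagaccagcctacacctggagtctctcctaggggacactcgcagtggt
Gjb2: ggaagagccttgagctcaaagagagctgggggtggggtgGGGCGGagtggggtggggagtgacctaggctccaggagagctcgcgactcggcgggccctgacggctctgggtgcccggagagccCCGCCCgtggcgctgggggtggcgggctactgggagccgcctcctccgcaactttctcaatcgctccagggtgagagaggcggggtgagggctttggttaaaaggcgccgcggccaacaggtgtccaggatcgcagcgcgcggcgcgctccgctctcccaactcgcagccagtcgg
The Gjb2 window held 2 matches to the GC box, found in 35.7% of 32851 promoter windows of this length, and the Gjb6 window held none. Neither held the TATA box (13.6% of windows), the AP-1 motif (7.81%) or the E-box (7.15%) as spelled here. The windows also differed in composition, with 27 CG dinucleotides and 70.0% GC for Gjb2 against 6 and 57.3% for Gjb6, where the median window had 7 CG dinucleotides and 52.7% GC.

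Gjb6 itself was measured at 56 UMIs in 19 of 43 injured fibroblasts and at 83 UMIs in 43 of 88 uninjured ones. The median cell had 0 in both libraries, and no cell exceeded 8 UMIs in the injured or 10 UMIs in the uninjured library. The levels were 75.3 CPM (56.9 to 97.8) and 258 CPM (205 to 319), a log2 ratio of -1.76 (-2.29 to -1.27) that was -0.79 without the cells of 30000 UMIs or more. Both stood above the C1q gate, at 6.69 CPM (5 of 114 cells) and 8.88 CPM (1 of 29 cells), and below the astrocyte gate, at 447 and 638 CPM. After thinning to 1000 gene UMIs, 21.4% of injured and 26.7% of uninjured fibroblasts had a Gjb6 UMI, and no C1q gate cell did. These intervals overlap widely, 10.3 to 36.8% and 17.8 to 37.4%.

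Reporter and endogenous gene were not read in the same cells throughout. Both were seen in 18 injured and 39 uninjured fibroblasts, the reporter alone in 22 and 41, Gjb6 alone in 1 and 4, and neither in 2 and 4. The median depth of cells without a reporter UMI was 1375 UMIs in the injured and 2298 UMIs in the uninjured library, below that of cells with one (13171 and 3210.5), so a missing UMI at this depth does not show a missing transcript.

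Gjb2, the partner of Gjb6 in meningeal cells, stood apart from the astrocytes. It was at 74.0 CPM in injured and 80.7 CPM in uninjured fibroblasts, 8.99-fold (4.93 to 17.5) and 6.23-fold (3.95 to 9.47) above the astrocyte gate. The C1q gate was at 0.558 CPM and 0. Gja1, which encodes connexin 43, was at 301 and 161 CPM and so below the astrocyte gates, at 1267 and 1455 CPM. Gjc1, connexin 45, was at 71.3 and 31.0 CPM, a log2 ratio of 1.17 (0.21 to 2.34). This was under 2-fold, at 0.66, with cells of another gate left out, and 0.56 where rule genes took at least 1% of UMIs. The mural gate of the injured library was at 834 CPM of Gjc1. Gja4, connexin 37 of vessel walls, was seen in 14 injured cells and 1 uninjured cell. Mural markers did not all move with it. Rgs5 had 79 UMIs in 3 injured fibroblasts and 0 in the uninjured ones, whereas Vtn was at 744 and 1226 CPM. Of 3 mural markers tested, 2 were higher and 0 lower, and the list of 10 summed to 1125 and 1289 CPM. Of the 10 injured fibroblasts that also met another gate, 7 met the mural gate. With cells of another gate left out, Rgs5 was at 1.73 CPM in injured fibroblasts, against 106 CPM with them. Of 1 mural marker tested there, 0 were higher and 1 lower. The part of mural RNA in the remaining cells was not tested. Gjb1 and Gjd3 were at 0 in the fibroblasts of both libraries.

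**Figure D2:**
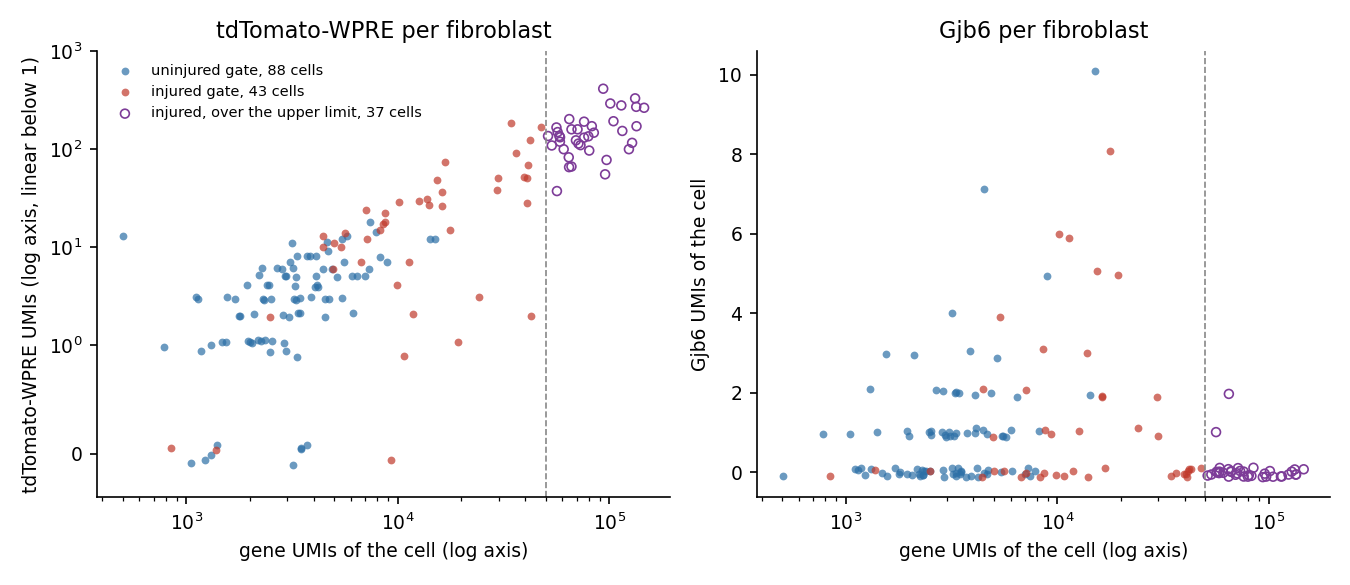
UMIs of tdTomato-WPRE (left, log axis, linear below 1) and Gjb6 (right) in each fibroblast against its gene UMIs on a log axis, with a small random vertical offset; the dashed line is the upper limit of 50000 gene UMIs and open circles are the 37 injured cells above it. The reporter climbs with depth across the whole range, whereas no Gjb6 UMI was seen in the 9 injured cells between 30000 and 50000 gene UMIs and 2 cells above the limit had one.

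Beyond the reporter, 14 of 17 other collagens, 10 of 12 basement membrane genes, 11 of 14 immediate early genes and 9 of 14 mesenchymal transcription factor genes were at least 4-fold above the astrocyte gate in both libraries. The share over all genes compared was 8.33%. Mesenchymal factor genes summed to 4080 and 5319 CPM in injured and uninjured fibroblasts, against 6893 and 7037 CPM in the mural gate. Basement membrane genes were at 3748 and 4406 against 4505 and 4398 CPM there, and other collagens at 4475 and 4142 against 2228 and 2786 CPM. Immediate early genes, at 6534 and 8545 CPM, were higher in the endothelial gate, at 15380 and 21863 CPM. The C1q, mural and ependymal gates were also higher in the uninjured library, at 19694, 19938 and 13387 CPM. In the injured library these 3 gates were lower, at 5336, 753 and 2118 CPM. The astrocyte gates were at 982 and 176 CPM. Apart from Dcn, the largest difference from the astrocyte gate was in Apod, which encodes the lipid carrier apolipoprotein D. It was at 15447 CPM in injured and 73386 CPM in uninjured fibroblasts against 24.1 and 28.8 CPM in astrocytes. The remaining genes among the 15 with the greatest separation included Mgp (matrix Gla protein), Bgn (biglycan), Cemip (hyaluronan breakdown), Col15a1, Serpinf1, Tgfbi, Pdgfra (the receptor that marks most fibroblasts) and the transcription factor gene Ebf1. Col3a1, Lum, Slc6a13 and Igf2 were also among the 15 and were used by the rule.

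Between conditions, 4333 genes reached 50 CPM in the fibroblasts of at least 1 library. A gene is called higher or lower here where its CPM differed at least 2-fold after 1 CPM was added to both. By this rule 568 genes (13.1%) were higher and 531 (12.3%) lower in injured fibroblasts, and the median log2 ratio was 0.05. The 9 deepest injured cells, of 30000 UMIs or more, gave 49.2% of the UMIs of the injured library's fibroblasts. Values without them are given for some lists and genes. The shares of 13.1% and 12.3% apply only to list counts over all cells. Over all genes, 673 were higher and 567 lower in male cells, and 440 and 410 without the 9 deepest cells. With cells of another gate left out, 676 were higher and 616 lower. The numbers of genes tested in those settings are not given here, so list counts there have no share beside them.

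The list with the most called members was that of fibroblast activation and myofibroblast genes. Of its 23 tested members 14 were higher and 1 lower, with a median log2 ratio of 1.48. Without the cells of 30000 UMIs or more this was 10 of 20, and among male cells 13 of 22. The rise was not particular to fibroblasts. The list summed to 23179 CPM in injured and 5722 CPM in uninjured fibroblasts, and to 8437 and 303 CPM in the astrocyte gates. It was also higher after injury in every other gate, such as the C1q gate (12425 and 6724 CPM) and the mural gate (7438 and 4105 CPM). Spp1, the secreted phosphoprotein osteopontin, was at 9843 CPM in injured and 540 CPM in uninjured fibroblasts, a log2 ratio of 4.18 (3.97 to 4.41) that was 3.10 without the cells of 30000 UMIs or more and 2.04 in male cells. The C1q gates also held Spp1, at 7956 and 3065 CPM, and the part of RNA from those cells was not tested. Tm4sf1, a membrane protein of motile cells, was at 484 and 24.8 CPM, and Lgals1, galectin 1, at 2432 and 351 CPM. Vim, the intermediate filament vimentin, was at 2411 and 736 CPM. The contractile genes were low: Tagln was at 74.0 and 3.10 CPM, and Acta2 at 40.4 and 3.10 CPM, from 3 injured cells and 1 uninjured cell. For Acta2 the log2 ratio was 3.33 on summed counts and -0.18 with cells weighted equally.

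Proteases and their inhibitors gave 6 higher and 1 lower of 20 tested. Timp1, a secreted inhibitor of matrix metalloproteinases, was seen in most injured fibroblasts, with 587 UMIs in 34 of 43 injured fibroblasts and 3 UMIs in 3 of 88 uninjured ones. Its levels were 790 and 9.31 CPM, a log2 ratio of 6.26 (4.85 to 8.69) that was 5.20 without the cells of 30000 UMIs or more and 4.66 in male cells. The C1q gate of the injured library was at 10.6 CPM of Timp1 and the astrocyte gate at 279 CPM. Adam12, a membrane protease, was at 184 and 15.5 CPM. Mmp2, a gelatinase, was lower, at 65.9 and 174 CPM.

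Collagen maturation enzymes showed 4 higher and 1 lower of 14. The higher ones were Lox and Loxl2, which cross-link collagen, Plod2, which hydroxylates its lysines, and Bmp1, which cuts the procollagen end. Lox was at 178 CPM in injured and 24.8 CPM in uninjured fibroblasts, and Loxl2 at 237 and 62.1 CPM. Of the other collagens 4 were higher and 4 lower of 19, and 8 were higher and 3 lower of 19 in male cells. Col12a1, a collagen on the surface of fibrils, was at 229 and 77.6 CPM, and Col4a1, of basement membranes, at 850 and 332 CPM. Col15a1 went the other way, at 295 and 978 CPM, a log2 ratio of -1.73 (-1.99 to -1.48).

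Matricellular and elastic fiber genes divided as well, with 8 higher and 6 lower of 28. Cthrc1, a secreted protein of activated fibroblasts, was at 250 CPM in 31 injured cells and 27.9 CPM in 8 uninjured ones. Tnc, tenascin C of provisional matrix, was at 160 and 12.4 CPM, with a log2 ratio of 3.59 (2.29 to 5.59) that was 0.89 without the cells of 30000 UMIs or more. Igfbp7 was at 2635 and 779 CPM. Among the proteoglycans 1 was higher and 5 lower of 11: Bgn was at 1626 and 441 CPM, whereas Gpc3, a membrane-bound glypican, was at 65.9 and 1043 CPM, and Ogn and Prelp were lower on summed counts. Basement membrane genes were 1 higher and 3 lower of 12.

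Chemokine and cytokine genes were 4 higher and 2 lower of 15. Ccl2, which draws monocytes, had 652 UMIs in 21 injured fibroblasts and 11 UMIs in 7 uninjured ones, at 877 and 34.2 CPM. Its log2 ratio was 4.64 (3.83 to 5.69), and 3.22 without the cells of 30000 UMIs or more. Ccl7, of the same family, was at 420 and 99.4 CPM. Cxcl2, which draws neutrophils, had 188 UMIs in 10 injured fibroblasts and 0 in the uninjured, at least 27.1-fold higher when the uninjured cells are set at 3 counts. The C1q gate of the injured library held more Cxcl2 (492 CPM) than the fibroblasts (253 CPM), and the part of RNA from those cells was not tested. Il11 had 53 UMIs in 11 injured cells and 0 in the uninjured (at least 7.65-fold), at 71.3 CPM in all injured and 11.5 CPM in injured male cells. Cxcl12 was level, at 439 and 419 CPM, and Cxcl14 had 0 UMIs in injured fibroblasts and 36 in 9 uninjured ones.

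Acute phase, complement and presentation genes were 5 higher and 6 lower of 15, and 3 higher and 1 lower of 15 without the cells of 30000 UMIs or more. Saa3, a serum amyloid protein, had 122 UMIs in 7 injured cells, up to 54 in 1 cell, and 0 in the uninjured. The interferon-induced genes Ifitm1 (1142 and 189 CPM) and Ifitm3 (2172 and 1081 CPM) were higher. Serping1, the C1 inhibitor, was lower, at 640 and 1490 CPM, as were H2-K1 and Serpina3n. Without those cells H2-K1 was at a log2 ratio of -0.90 and Serping1 at -0.45.

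Growth factor genes were 4 higher and 3 lower of 18, the higher ones being Inhba, Pdgfa, Pdgfrb and Fstl1. Pdgfa, a ligand of Pdgfra, was at 106 CPM in 10 injured cells and 6.21 CPM in 2 uninjured ones. Inhba, a chain of activin, was at 63.2 and 3.10 CPM. The receptor Pdgfra stood at 358 and 307 CPM, a log2 ratio of 0.22 (-0.12 to 0.57). The IGF axis was 1 higher and 3 lower of 9, with Igf1 at 122 and 345 CPM and Igfbp6 at 176 and 751 CPM.

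Cell cycle genes were 7 higher and 0 lower of 8 tested, with a median log2 ratio of 2.96. Without the cells of 30000 UMIs or more this was 4 higher and 0 lower of 6, with a median of 1.27. Birc5 was seen in 11 injured cells (66 UMIs) and Pclaf in 8 (67 UMIs). Neither had a UMI in the uninjured fibroblasts, which makes them at least 9.53-fold and 9.68-fold higher. Tubb5 was at 893 and 220 CPM. Among male cells 1 of 3 tested members was higher, with a median of -0.58. Stmn1 and Hmgb2 turned to log2 ratios of -0.24 and -0.60 there, from 2.18 and 1.37 over all cells, and no injured male cell of the gate had a Pclaf UMI. Of the 9 injured fibroblasts of 30000 UMIs or more, 6 were female and 2 male, so sex and depth cannot be told apart here.

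Of the 531 lower genes, 14 had no UMI in injured fibroblasts. Among them, Col9a2 (a collagen chain), Dlk1, Opcml, Enpp2 (autotaxin, which makes lysophosphatidic acid), Myoc and Reln had 52 to 84 UMIs in 15 to 31 uninjured cells and 0 in the injured cells, although the latter held more UMIs in all. The uninjured levels of Col9a2, at least 64.6-fold higher, and Dlk1, at least 51.6-fold higher, are given against 3 counts in the injured cells. Ebf2, a transcription factor of mesenchymal precursors, had 1 UMI in injured and 130 UMIs in 37 uninjured cells. Gsn, the actin-severing protein gelsolin, was at 221 and 3937 CPM, a log2 ratio of -4.15 (-4.40 to -3.92), and -3.81 without the cells of 30000 UMIs or more. Neuron markers summed to 213 and 807 CPM and moved with this set, which includes Opcml, Grin2b and Hpca; their part was not tested.

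Genes of the leptomeninges and the arachnoid barrier were 0 higher and 3 lower of 7 tested, with a median log2 ratio of -0.50. They summed to 1964 and 2509 CPM in injured and uninjured fibroblasts. This did not set the cells apart from the mural gate (3655 and 2932 CPM) or the endothelial gate (2314 and 3040 CPM). The list was 4 higher and 3 lower of 8 without the cells of 30000 UMIs or more (median 0.67) and 4 higher and 3 lower of 8 in male cells (median 0.61). With cells of another gate left out it was 0 higher and 3 lower of 7 (median -0.38). Slc13a4, a sulfate transporter, was at 4.04 CPM in injured and 112 CPM in uninjured fibroblasts, Ptgds, prostaglandin D synthase, at 2.69 and 106 CPM, and Ngfr at 1.35 and 96.3 CPM. Slc6a20a, a proline transporter, was at 136 and 93.1 CPM, a log2 ratio of 0.54 that was 1.44 without the cells of 30000 UMIs or more and 2.43 in male cells. With cells of another gate left out the sign of Slc6a20a turned, to -0.38 (79.7 and 104 CPM). Retinoid genes were 1 higher and 2 lower of 7. Rbp4, the plasma retinol carrier, was at 17.5 and 292 CPM, and Rdh10, which oxidizes retinol, at 231 and 55.9 CPM. The uninjured Rbp4 UMIs lay in 7 cells.

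Mesenchymal transcription factor genes were 0 higher and 3 lower of 14, and 3 higher and 2 lower of 17 in male cells. The 3 lower ones over all cells were Ebf2, Ebf1 (409 and 931 CPM) and Foxp2 (83.4 and 264 CPM), the last named after its values were seen. Immediate early genes were 0 higher and 2 lower of 14: Egr1 was at 523 and 1304 CPM and Ier2 at 211 and 491 CPM, whereas Fos, at 1295 and 2512 CPM, missed the 2-fold limit. Stress genes were 5 higher and 1 lower of 15, including the small chaperone Hspb1 at 371 and 109 CPM, and Mt1 was level at 404 and 410 CPM. Secretion genes were 3 higher (Sec61g, Pdia6 and Ssr4) and 0 lower of 26, and 0 higher without the cells of 30000 UMIs or more. Glycolysis genes were 4 higher and 0 lower of 10, and 0 higher and 1 lower of 10 without the cells of 30000 UMIs or more.

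Some of these calls did not hold when the cells were taken differently. Without the cells of 30000 UMIs or more the log2 ratio was 0.62 for Ccl7, -0.69 for Ebf1, -0.93 for Egr1, 0.67 for Ifitm3, 0.49 for Fstl1, 0.89 for Plod2, -0.72 for Ogn, -0.22 for Prelp and -0.48 for Slc6a13, all under 2-fold. With cells weighted equally it was 0.94 for Lox, 0.96 for Col4a1, 0.57 for Inhba, 0.70 for Pdgfrb, 0.69 for Fstl1, -0.93 for Ogn, -0.68 for Prelp, -0.84 for H2-K1, -0.68 for Serping1 and -0.65 for Ier2. In male cells it was -0.51 for Igf1, -0.47 for Ebf1 and -0.69 for Serping1. Of the 568 genes called higher, 249 were also higher without the cells of 30000 UMIs or more, 345 with cells weighted equally and 317 in male cells, and of the 531 called lower, 357, 383 and 373 were.

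**Figure D3:**
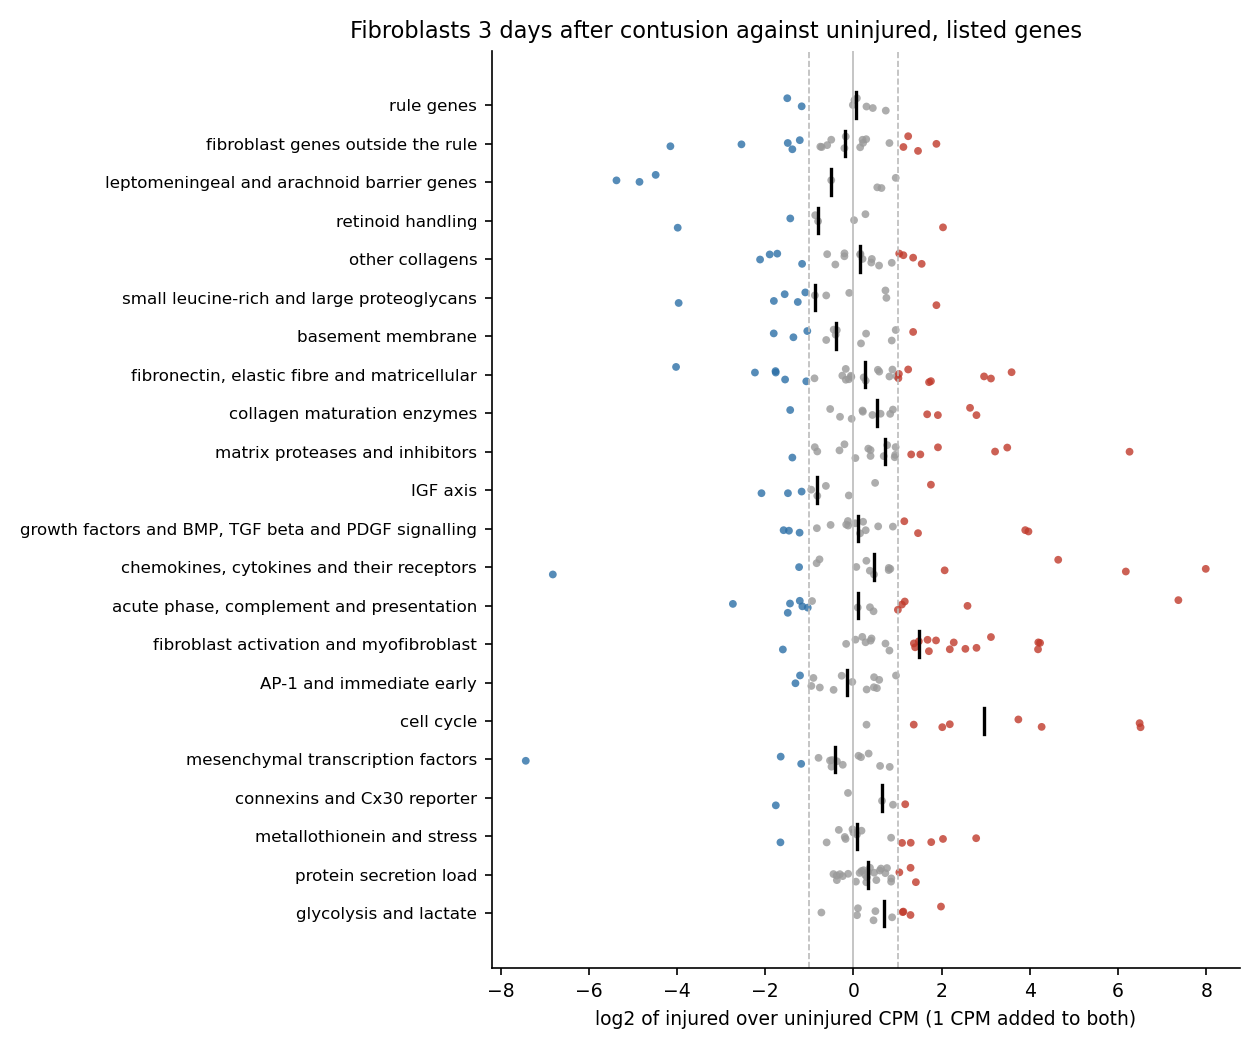
Log2 ratio of injured over uninjured CPM for each listed gene that reached 50 CPM in either library, with red points at least 2-fold higher, blue points at least 2-fold lower, black bars at list medians and dashed lines at 2-fold. The activation list (median 1.48) and the cell cycle list (median 2.96) lie to the right, against a median of 0.05 over all 4333 genes.

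The spread between cells was widest for Apod. The index of dispersion, the variance of a gene's UMIs over cells relative to what sampling from 1 shared level gives, was 580 in injured and 159 in uninjured fibroblasts, where sampling alone gives about 1. Spp1 reached 293 in the injured library, with 1641 of its 7317 UMIs in 1 cell, and 16.1 in the uninjured one. Mgp stood at 132 and 9.59. Among genes with at least 100 UMIs, the remaining ones of the 10 widest were mitochondrial transcripts and Malat1 after injury and, without injury, mitochondrial transcripts, Dcn and Vtn.

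The upper limit on gene UMIs passed through the injured fibroblasts. Of the 40 injured cells above it, 37 met the gene part of the rule with fewer than 5 C1q UMIs, at 51341 to 146136 gene UMIs (median 75960), and the uninjured library had no cell above it. They had at least 6 of the 8 rule genes each, which took a median of 0.886% of their UMIs, and after thinning to 1000 UMIs 21 of the 37 still had 4 rule genes, as did 33 of 42 gate cells. Of the 37 cells 7 also met the gate of another type. By sex genes 24 were female and 13 male. They are not counted among the 131 members. Which genes to show for them was chosen after their values were seen.

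These deep cells carried the reporter at the level of the gate. tdTomato-WPRE was at 1829 CPM over the 37 cells (576 to 4380 CPM per cell) and 1833 CPM in the gate. Gjb6 was not: it had 3 UMIs in 2 of the 37 cells among 3121491 gene UMIs, 0.961 CPM, against 75.3 CPM in the gate. Gjb2 had 2 UMIs, 0.641 CPM against 74.0 CPM. In the deepest cells inside the gate, the 9 cells from 30000 to 50000 UMIs had 0 Gjb6 UMIs, which allows up to 8.21 CPM, and 15 Gjb2 UMIs in 2 cells (41.0 CPM), whereas the 16 cells from 10000 to 30000 UMIs were at 156 CPM of Gjb6 and the 18 cells below 10000 UMIs at 129 CPM.

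Other genes followed the same order of depth in the injured library. Over the 4 bands from the shallowest to the deepest, Apod was at 25293, 27277, 3808 and 657 CPM. Slc6a13 went from 598 to 502, 118 and 11.2 CPM, and Igf2 from 644 to 661, 19.1 and 26.9 CPM. In the opposite direction, Tnc was at 9.19, 29.7, 301 and 590 CPM, Ccl2 at 294, 338, 1447 and 1563 CPM, and Il11 at 0, 22.3, 129 and 490 CPM. Tagln was at 704 CPM and Acta2 at 377 CPM above the limit, where 27 of 37 cells had an Acta2 UMI. Timp1 was at 929 CPM there.

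Over 4100 genes at 50 CPM or more in either set, 324 (7.90%) were at least 2-fold higher and 549 (13.4%) at least 2-fold lower in the cells above the limit than in the injured gate. Of the cell cycle genes 17 of 20 tested were higher and 0 lower. Mki67, a marker of cycling cells, had a UMI in 30 of the 37 cells, against 7 of 43 in the gate, at 99.0 and 29.6 CPM. After thinning to 1000 UMIs 1 of 37 and 0 of 42 cells kept one, so the shares of cells cannot be compared at equal depth, whereas Acta2 was kept by 11 of 37 and 0 of 42 cells. Of the activation genes 9 of 24 were higher and 0 lower, and of the acute phase, complement and presentation genes 0 were higher and 9 of 12 lower. A deeper cell shows a given transcript more often at the same level, and RNA content, cell state and doublets cannot be told apart in these files.

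**Figure D4:**
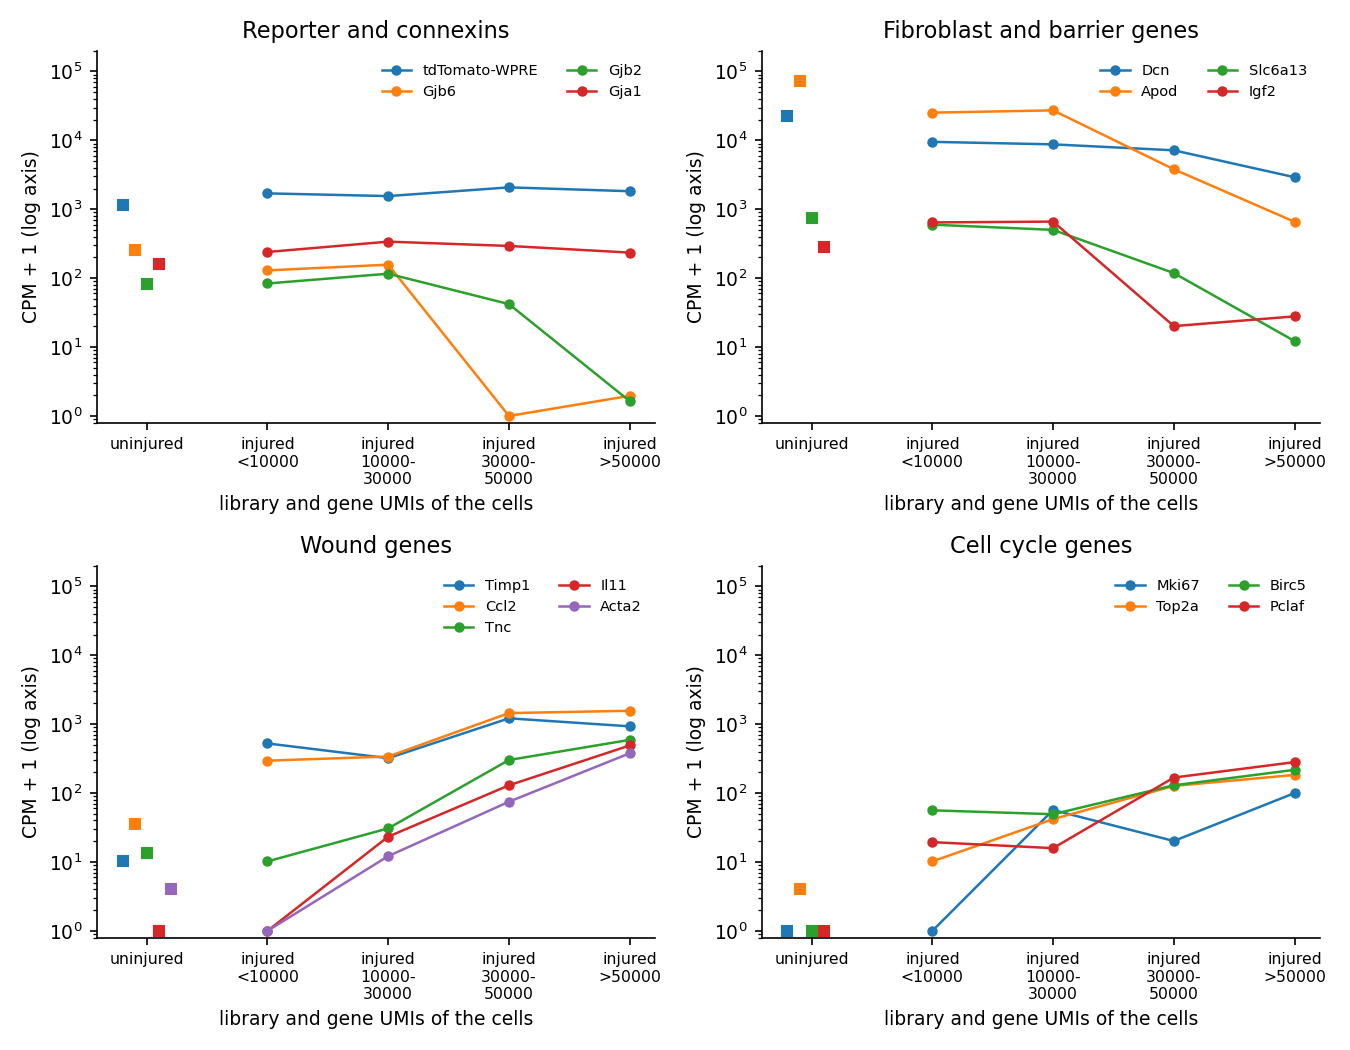
Summed CPM plus 1, on a log axis, of selected genes in uninjured fibroblasts (squares) and in injured fibroblasts grouped by gene UMIs (circles; 18, 16, 9 and 37 cells, the last group above the upper limit). tdTomato-WPRE stays between 1553 and 2079 CPM across the injured groups, while Gjb6 goes from 129 to 0.961 CPM and Il11 from 0 to 490 CPM.

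Enhancer barcodes were read in the fibroblasts of both libraries. Summed over 23 barcode features, 19 named M and 4 named A (the numbers of candidate and control enhancers in the pool), injured fibroblasts had 185 barcode UMIs, 249 per 1000000 gene UMIs (214 to 287), against 248 in the astrocyte gate and 224 in the C1q gate. Uninjured fibroblasts had 18, a rate of 55.9 (33.1 to 88.3), all from the feature A5. The uninjured astrocyte gate was at 58.0 and the C1q gate at 124 (68.0 to 209), so that fibroblasts stood at 0.449 of the C1q rate (0.211 to 0.976). In the injured fibroblasts 6 features were seen. M5 was at 91.5 on the same scale, A1 at 78.0, M8 at 39.0 and A5 at 33.6, and M24 and M11 had 4 UMIs and 1 UMI. M8 was 2.01-fold above the astrocyte gate (1.18 to 3.42) and 2.26-fold above the C1q gate (1.31 to 3.87), the 29 UMIs lying in 17 cells. M5 was 1.05-fold over the astrocyte gate (0.777 to 1.41). The paper reports that many barcodes of the pool were joined to the wrong enhancer, although correct pairs were more likely to be detected. A barcode level is therefore not read here as the activity of its enhancer.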

How the data were processed

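Single-cell UMI counts of 2 gene expression libraries, with enhancer barcodes in the same matrices, were used as the authors deposited them. Per the submitters' processing notes the authors made the counts with Cell Ranger 8.0.1 on mm10, whereas the file headers name 7.1.0; filters before deposit are not given in the sources used here. The files held 919 injured and 4159 uninjured barcodes, and cells above 500 and below 50000 gene UMIs were kept. Gates for other cell types needed a UMI in at least 4 markers. UMIs were summed per library and gate and divided by gene UMIs (CPM), 1 CPM was added before log2, and genes at 50 CPM or more were compared. Intervals were exact Poisson, Clopper-Pearson or conditional binomial intervals at 95%, and a count of 0 was set at 3. For log2 ratios of injured over uninjured, the intervals were computed without the added 1 CPM. They cover counting error only, since cells of 1 library are not replicates. Cells were thinned to 1000 UMIs where depth mattered. No doublet caller was run. Fold calls and intervals were tested on simulated counts with no spread between cells beyond sampling, which the most variable genes here exceeded. The index of dispersion was tested on simulated counts with and without such spread. Gates and thinning were not tested this way. Python 3.11.15, numpy 2.4.6, scipy 1.17.1 and matplotlib 3.10.9 were used.

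The members and gene lists were chosen with earlier results of these data known. Named genes were the rule genes, reporter and connexins, in each list the 6 most abundant members and the 3 highest and 3 lowest ratios, the 15 highest and 15 lowest ratios over all genes, the 15 with the greatest separation from astrocytes and the 10 most dispersed per library. Genes named outside this rule, Foxp2 and Mki67, were chosen after their values were seen, and some genes that the rule named are not reported here. The remaining alternatives were other rule-gene minima, cells of other gates left out, male cells, equal weights, the deepest cell left out, 10 CPM added, a minimum of 20 CPM and median ratio scaling. Cells under 30000 UMIs, cells above 50000 UMIs and a 1% minimum of rule-gene UMIs were added after seeing the data.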

Additional observations from a re-analysis of the deposited data

Results flagged for a closer look

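The reporter stood on opposite sides of the astrocyte level in the libraries. The log2 ratio of tdTomato-WPRE in fibroblasts over the astrocyte gate was -0.26 in the injured and 1.47 in the uninjured library, and with 1 library per condition this difference was not tested. The astrocyte gate itself was at 2201 CPM after injury and 421 CPM without it.

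Cells left out by the upper UMI limit carried fibroblast genes. There were 37 such cells in the injured library and none in the uninjured library, and their Gjb6 level was 0.961 CPM against 75.3 CPM in the injured gate.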

How the results depend on the processing

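No paired analysis was possible because there was only 1 library of each kind and no test was run. Under the 10 settings in which cells were chosen or weighted differently, the ratio of tdTomato-WPRE over astrocytes kept its sign in both libraries. In the injured library (-0.26 on the log2 scale) the ratio was -0.14 with cells of other gates left out, -0.67 in male cells, -0.50 with equal weights, -0.68 after thinning, -0.35 without the deepest cell and -0.46 in cells under 30000 UMIs, and in the uninjured library (1.47) it was 1.70 with equal weights and 1.29 after thinning. The injured over uninjured reporter ratio (0.65) was -0.023 in male cells, 0.27 with equal weights and 0.45 in cells under 30000 UMIs. For Gjb6 the injured over uninjured ratio (-1.76) was -1.22 with equal weights, -0.60 after thinning, -0.79 under 30000 UMIs and -3.99 with cells above 50000 UMIs included. Its injured ratio over astrocytes (-2.55) was -2.03, -0.95, -1.59 and -4.78 under the same settings, and its uninjured one (-1.30) was -0.79 after thinning. The cause was not tested.

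The 568 higher and 531 lower genes became 1139 and 1135 after thinning, 1152 and 1145 at a minimum of 20 CPM, which tests more genes, and 1026 and 982 with cells above 50000 UMIs included. At 20 CPM the 333 genes above astrocytes became 527. Without limits on UMIs the injured gate share was 8.71%. Signs turned for Notch3 (2.22), at -0.18 and -0.23 with 5 and 6 rule genes required and -3.51 without cells of other gates. In male cells they turned for Igfbp5 (0.16), Stmn1 (-0.24), Hmgb2 (-0.60) and Ldha (-0.023), with equal weights for Acta2 (-0.18), and under 30000 UMIs for Ldha (-0.12). Thinning turned Dhrs3 (0.16), Col5a2 (-1.01), Pappa (-3.66), Ccl19 (0.033), Prrx2 (-3.66), Cdkn1a (1.00), Pfkp (0.033) and Ntsr2 (0.033), which then rest on few UMIs. Including cells above 50000 UMIs turned Slc22a8 (-0.56) and Pfkp (0.11). These turned signs are listed only for genes past 2-fold over all cells. Under 2-fold, Slc6a20a (0.54) and Igf2 (0.29) were at -0.38 and -0.86 without cells of other gates. Depth limits genes seen in few cells most, and 39 of 88 uninjured fibroblasts could not be called by sex genes.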
